A study of Homo sapiens with 6 samples.

Results

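ATAC-seq peaks around 8 genes that mark primed pluripotency (OTX2, ZIC2, ZIC5, SOX11, SALL2, SFRP2, THY1 and CD24) were read in naive human embryonic stem (nES) cells grown with or without dm-αKG. A peak was included when it overlapped the gene, or 50 kb on either side of it, in the GENCODE 44 annotation of hg38. The rule used position only, and it took 100 of the 171517 peaks of the count table. The windows of ZIC2 and ZIC5, neighbours on chromosome 13, share 22 peaks, each of which was counted once. All 100 peaks were tested, and no peak had a count of 0 in any library.

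The 6 libraries came from the established human embryonic stem cell line H9, kept in the naive state in tt2iLGö medium, which holds inhibitors of MEK, GSK3 and protein kinase C together with LIF. Feeder cells were depleted, and the cells were then plated on laminin. The 3 dm-αKG libraries came from cells given 4 mM dm-αKG for 24 h, and the 3 control libraries from cells without it, named as DMSO in the labels and as 0 mM dm-αKG in the study's methods. No genetic change is given for either group, both used the same line in the same medium, and the experiment was performed once, so p-values measure the spread between replicates of 1 experiment in 1 line. The libraries held between 13025674 and 26828622 counts in peaks, and no library stood apart in its scaling factor (0.991 to 1.01).

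Human pluripotent cells exist in a naive state, which resembles the epiblast before implantation, and in a primed state, which resembles the epiblast after it. Primed cells use the transcription factors OTX2, ZIC2, SOX11 and SALL2 and display THY1 (CD90) and CD24 on their surface, and in naive cells these genes are low. ATAC-seq counts the insertions of a transposase into open chromatin, so a peak's count measures the accessibility of a gene regulatory element (GRE) and not the transcript of a gene. dm-αKG is a membrane-permeable ester of α-ketoglutarate, a metabolite of the TCA cycle and a co-substrate of the dioxygenases that demethylate histones and oxidize methylated DNA. Whether it moved the GREs of the primed programme in naive cells is the comparison made here.

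The 5 sequences that follow are GREs that were lower with dm-αKG, chosen after the test. They are the peaks with the largest losses near SOX11 and near CD24 and the ZIC2 peak with the smallest adjusted p. Each is named by its gene and by the distance of its centre from the gene's start, positive along the direction of transcription, and each was read from the + strand of hg38, 5′ to 3′. Capitals mark words typical of factor families in pluripotent cells, found on either strand: ATGCAAAT (OCT octamer), CCTGCTG (ZIC) and GGAATG (TEAD).
SOX11 +34.0 kb (chr2:5726307-5726516): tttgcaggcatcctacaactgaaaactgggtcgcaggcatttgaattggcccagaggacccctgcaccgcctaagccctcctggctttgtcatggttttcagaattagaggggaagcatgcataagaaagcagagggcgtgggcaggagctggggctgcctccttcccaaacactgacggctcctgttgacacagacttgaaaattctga
SOX11 +39.4 kb (chr2:5731691-5731890): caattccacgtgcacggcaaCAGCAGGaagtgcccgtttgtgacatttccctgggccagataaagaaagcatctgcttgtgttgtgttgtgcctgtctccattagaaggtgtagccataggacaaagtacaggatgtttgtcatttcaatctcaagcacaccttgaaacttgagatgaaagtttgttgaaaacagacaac
ZIC2 +38.2 kb (chr13:100019926-100020136): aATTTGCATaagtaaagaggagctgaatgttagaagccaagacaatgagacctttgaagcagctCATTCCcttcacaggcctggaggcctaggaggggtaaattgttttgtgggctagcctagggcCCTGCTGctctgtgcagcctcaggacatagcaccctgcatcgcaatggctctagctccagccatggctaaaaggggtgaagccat
CD24 -22.2 kb (chr6:106997738-106997941): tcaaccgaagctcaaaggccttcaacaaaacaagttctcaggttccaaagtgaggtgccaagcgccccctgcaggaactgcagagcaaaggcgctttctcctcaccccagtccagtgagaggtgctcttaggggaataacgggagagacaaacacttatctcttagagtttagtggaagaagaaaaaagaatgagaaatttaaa
CD24 -24.4 kb (chr6:106999923-107000122): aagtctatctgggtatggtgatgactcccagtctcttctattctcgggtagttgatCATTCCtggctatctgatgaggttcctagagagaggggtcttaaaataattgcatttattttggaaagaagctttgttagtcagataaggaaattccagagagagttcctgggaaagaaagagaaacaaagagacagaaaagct

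Between these sequences the words differ. The ZIC2 +38.2 kb peak holds an octamer at position 2, a TEAD word at 65 and a ZIC word at 127, counted from 1 at the left end. The SOX11 +39.4 kb peak holds a ZIC word at position 21 and the CD24 -24.4 kb peak a TEAD word at 57. The SOX11 +34.0 kb and CD24 -22.2 kb peaks hold none of the 8 words searched.

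Accessibility near the primed genes was lower with dm-αKG at 13 of the 100 peaks and higher at 2 (edgeR, Benjamini-Hochberg adjusted p below 0.05 over all peaks). Of all peaks tested, 10.5% were lower and 7.43% higher, so the count of lower peaks was near the background and that of higher peaks below it. The study's stricter threshold was a log2 fold change beyond 1 in either direction at an adjusted p under 0.01. By this threshold in the edgeR fit, 6 peaks were less accessible and 0 more accessible, against 1.96% and 0.782% of all peaks. The losses were seen near SOX11 (4 of its 10 peaks), CD24 (3 of 14), ZIC2 (2 of 22), SALL2 (2 of 19) and SFRP2 (2 of 8), with 0 of 16 near OTX2 and 0 of 10 near THY1. Values per library are normalized counts, that is counts scaled by library size, a promoter peak has its centre at most 1 kb from where a coding transcript begins, and the top promoter peak of a gene is the one with the highest mean over the libraries. The median log2 fold change of the 100 peaks was -0.01, beside 0.01 for all peaks.

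An unadjusted p below 0.05 was reached by 25 of the 100 peaks, against 30.7% of all peaks. All dm-αKG libraries lay below all control libraries at 16 peaks and above them at 10, against 16.9% and 15.5% of all peaks. With 3 libraries against 3 an exact permutation test of a single peak cannot give a p below 0.1, so every test of a peak used the fit across the whole table. In a bulk sample a change in every cell and a change in the share of cells with an open GRE cannot be told apart. The number of peaks past the study's threshold dropped to 3 with offsets for GC content or a minimum of 10 counts in every library, and to 2 with all libraries thinned to the smallest, whereas at least 10 of the 13 lower peaks still passed in each of these settings. Without control replicate 2, or without dm-αKG replicate 1, it was also 3, and the count of higher peaks was 1 without control replicate 2 or dm-αKG replicate 2.

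**Figure D1:**
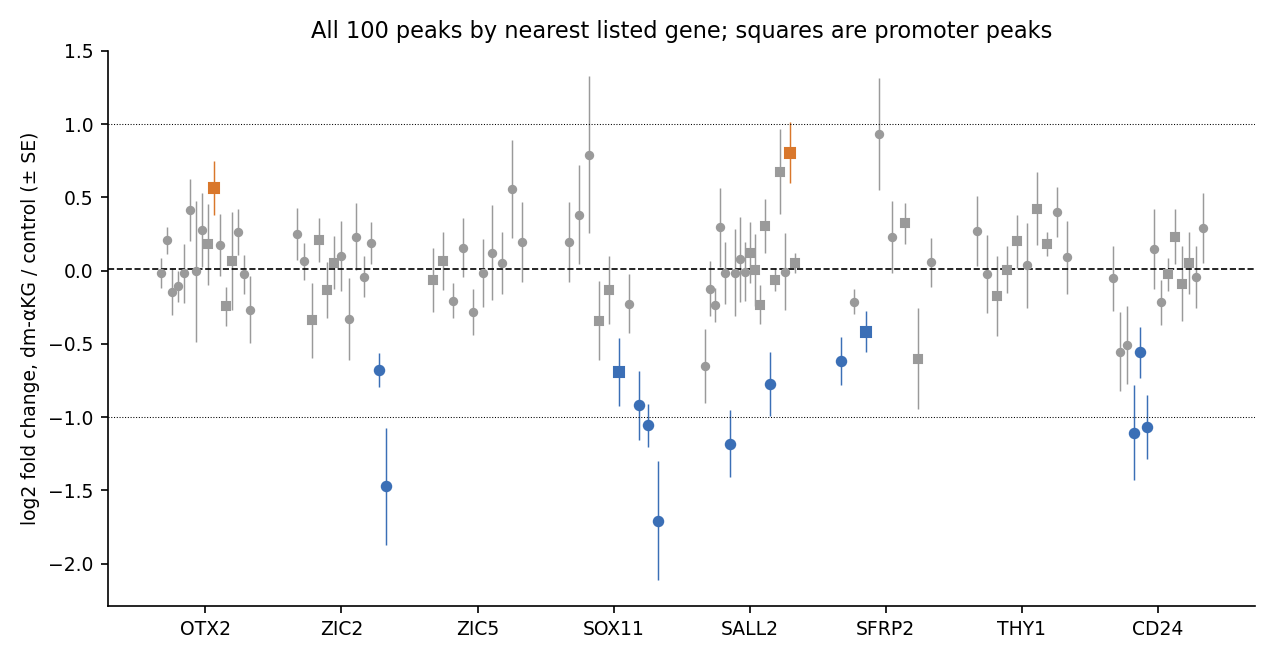
log2 fold change (dm-αKG over control, ± SE) of all 100 peaks, ordered by position within each gene, with ZIC2 and ZIC5 peaks placed at the nearer gene. Blue marks the 13 peaks that were lower and orange the 2 that were higher at an adjusted p below 0.05, squares are promoter peaks of any gene, the dashed line is the median of all peaks and dotted lines mark log2 fold changes of -1 and 1. The 6 peaks past the study's threshold are the blue points below the lower dotted line, near ZIC2, SOX11, SALL2 and CD24.

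Among the transcription factors, SOX11 had the largest share of lower peaks. SOX11 (ENSG00000176887, chr2:5692384-5701385, + strand) encodes an HMG-box factor of the neural and primed programmes. Its 10 peaks summed to 601, 524 and 576 in the control libraries and 408, 387 and 362 in the dm-αKG libraries as normalized counts, so the groups did not overlap. The log2 ratio of the group means of these sums was -0.55, whereas for the other 7 windows it lay between -0.20 (CD24) and 0.17 (THY1). The SOX11 peaks differed among themselves, with log2 fold changes from -1.71 to 0.79.

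The losses at SOX11 came from 3 GREs downstream of the gene and 1 at its start. The +34.0 kb peak, which had the highest count of the window in control, lies in an exon of the lncRNA gene ENSG00000236106 and had normalized counts of 183, 186 and 176 in the control libraries and 76.0, 96.2 and 95.8 in the dm-αKG libraries. Every dm-αKG library was far below every control library at this peak. The fall had a log2 fold change of -1.06 ± 0.15 (SE, n = 3 per group) with an edgeR adjusted p of 3.00e-08, the smallest adjusted p among the 100 peaks.

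A second peak at +33.7 kb, chr2:5725989-5726230, lies next to it in intergenic sequence. It had 70.7, 64.1 and 59.5 in the control libraries and 39.4, 25.7 and 35.9 in the dm-αKG libraries. The groups were again apart, and the peak fell with a log2 fold change of -0.92 ± 0.23 (SE, n = 3 per group) with an edgeR adjusted p of 0.00262.

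The intergenic +39.4 kb peak was much weaker, at 25.9, 31.2 and 23.1 in the control libraries and 7.17, 7.70 and 10.5 in the dm-αKG libraries. It had under 10 counts in some library, where counting error is large. All dm-αKG values were under the lowest control value. With a log2 fold change of -1.71 ± 0.41 (SE, n = 3 per group) with an edgeR adjusted p of 0.00115, this was the largest fall among the 100 peaks, and the peak was in the authors' peak list of the control cells only. A peak of the control list only entered the count table through the control cells alone. A fall at such a peak is favoured by the way the peaks were chosen.

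At the start of SOX11 the -0.1 kb promoter peak (chr2:5692198-5692397) had 80.5, 55.1 and 58.3 in the control libraries and 33.7, 53.9 and 34.4 in the dm-αKG libraries. It was also in the control peak list only. The groups were apart by a narrow margin, the highest dm-αKG library lying just under the lowest control library. The peak fell with a log2 fold change of -0.69 ± 0.23 (SE, n = 3 per group) with an edgeR adjusted p of 0.0259, and it did not pass with DESeq2 or without any one of control replicate 1, dm-αKG replicate 1 and dm-αKG replicate 3. The other promoter peaks of SOX11, at -0.6 and -0.4 kb, had log2 fold changes of -0.34 ± 0.27 (SE) and -0.13 ± 0.23 (SE) and did not pass. A cluster of 3 weak peaks 18.2 to 19.0 kb upstream of SOX11 had positive log2 fold changes, 0.19 to 0.79, of which none passed.

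ZIC2 (ENSG00000043355, chr13:99981784-99986765, + strand) and ZIC5 (ENSG00000139800, chr13:99962964-99971767, - strand) encode zinc finger factors and are transcribed away from each other. Their windows held 23 peaks together, of which 2 fell and none rose. Both lower peaks lie in intergenic sequence on the ZIC2 side, at +38.2 and +38.7 kb. The stronger had 262, 256 and 292 in the control libraries and 159, 169 and 179.6 in the dm-αKG libraries. It had the highest control count of both windows, and the groups did not overlap. It fell with a log2 fold change of -0.68 ± 0.11 (SE, n = 3 per group) with an edgeR adjusted p of 3.33e-06.

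Its neighbour at +38.7 kb, in the control peak list only, had 19.7, 26.3 and 35.2 in the control libraries and 9.32, 7.70 and 12.0 in the dm-αKG libraries. This neighbour had under 10 counts in some library, where counting error is large. All dm-αKG values were under the lowest control value. It fell with a log2 fold change of -1.47 ± 0.40 (SE, n = 3 per group) with an edgeR adjusted p of 0.00477.

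No promoter peak of either gene passed the test. The top promoter peak of ZIC2, 0.3 kb upstream of its start, had 107, 112 and 120.3 in the control libraries and 124, 157 and 111 in the dm-αKG libraries. The groups overlapped, and its log2 fold change was 0.21 ± 0.15 (SE) with an edgeR adjusted p of 0.366. The top promoter peak of ZIC5, in an exon, had 50.1, 88.0 and 63.2 in the control libraries and 68.1, 70.6 and 74.8 in the dm-αKG libraries, a log2 fold change of 0.07 ± 0.20 (SE) with an edgeR adjusted p of 0.860. The control libraries of ZIC5 spanned the dm-αKG libraries, and the sign of this small value turned under 3 of the other settings and without control replicate 1. The 3 peaks in LINC00554, 15.4 to 16.1 kb downstream of the ZIC2 start, had log2 fold changes between -0.04 and 0.23 and did not pass.

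OTX2 (ENSG00000165588, chr14:56799905-56816693, - strand) encodes a homeobox factor of the primed epiblast and of the anterior brain. Of its 16 peaks none fell and 1 rose. The peak that rose covers the upstream start of the gene (chr14:56816672-56816885) and had 75.1, 64.9 and 54.7 in the control libraries and 91.1, 108 and 92.8 in the dm-αKG libraries. Each dm-αKG library was above each control library. It rose with a log2 fold change of 0.56 ± 0.18 (SE, n = 3 per group) with an edgeR adjusted p of 0.0221, short of the study's fold threshold, and it did not pass with DESeq2, with GC offsets, with thinned libraries or without any one of control replicates 2 and 3 and dm-αKG replicate 2.

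OTX2 has further transcript starts inside the gene, and its promoter peak of highest count lies there, at +10.9 kb. It had 166, 203 and 166 in the control libraries and 163, 162 and 123 in the dm-αKG libraries. All dm-αKG values were below all control values, by a small margin, and the log2 fold change of -0.24 ± 0.13 (SE) did not pass (edgeR adjusted p = 0.199). The difference between these promoter peaks was not tested. Upstream of OTX2, in introns of OTX2-AS1, lie the strongest GREs of the window. The -39.3 kb peak had 291, 307 and 311 in the control libraries and 349.9, 346 and 352 in the dm-αKG libraries. Its groups were apart, the dm-αKG libraries being higher, with a log2 fold change of 0.21 ± 0.09 (SE) that did not pass (edgeR adjusted p = 0.110).

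SALL2 (ENSG00000165821, chr14:21521080-21537216, - strand) encodes a zinc finger factor of the spalt family, and its window held 19 peaks, of which 2 fell and 1 rose. The intergenic -10.1 kb peak had 76.9, 63.3 and 91.1 in the control libraries and 35.9, 29.5 and 34.4 in the dm-αKG libraries. Every dm-αKG library was below every control library. It fell with a log2 fold change of -1.18 ± 0.23 (SE, n = 3 per group) with an edgeR adjusted p of 4.89e-05.

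On the other side of SALL2, the intergenic +22.7 kb peak (chr14:21514439-21514638), between SALL2 and METTL3, had 71.6, 65.8 and 82.6 in the control libraries and 35.9, 52.6 and 41.9 in the dm-αKG libraries. It was in the control peak list only. The groups were apart, and the peak fell with a log2 fold change of -0.77 ± 0.22 (SE, n = 3 per group) with an edgeR adjusted p of 0.00733. The top promoter peak of SALL2, at an internal transcript start, had 161, 206 and 203 in the control libraries and 146, 204 and 138 in the dm-αKG libraries, with overlapping groups and a log2 fold change of -0.23 ± 0.13 (SE) that did not pass (edgeR adjusted p = 0.223), except without dm-αKG replicate 2.

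The peak that rose in the SALL2 window is a promoter peak of other genes, TOX4 and RAB2B, which share a promoter region (chr14:21477518-21477717). It was in the dm-αKG peak list only and had 62.6, 50.1 and 30.4 in the control libraries and 85.3, 93.6 and 76.3 in the dm-αKG libraries. The groups were apart. It rose with a log2 fold change of 0.81 ± 0.21 (SE, n = 3 per group) with an edgeR adjusted p of 0.00281, whereas the main TOX4 and RAB2B promoter peak beside it, with a mean of 902 in control, had a log2 fold change of 0.05 ± 0.07 (SE) and did not pass. Without the 8 promoter peaks of other genes (RNF175, TOX4, RAB2B, METTL3 and USP2), 13 lower peaks and 1 higher peak remained.

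**Figure D2:**
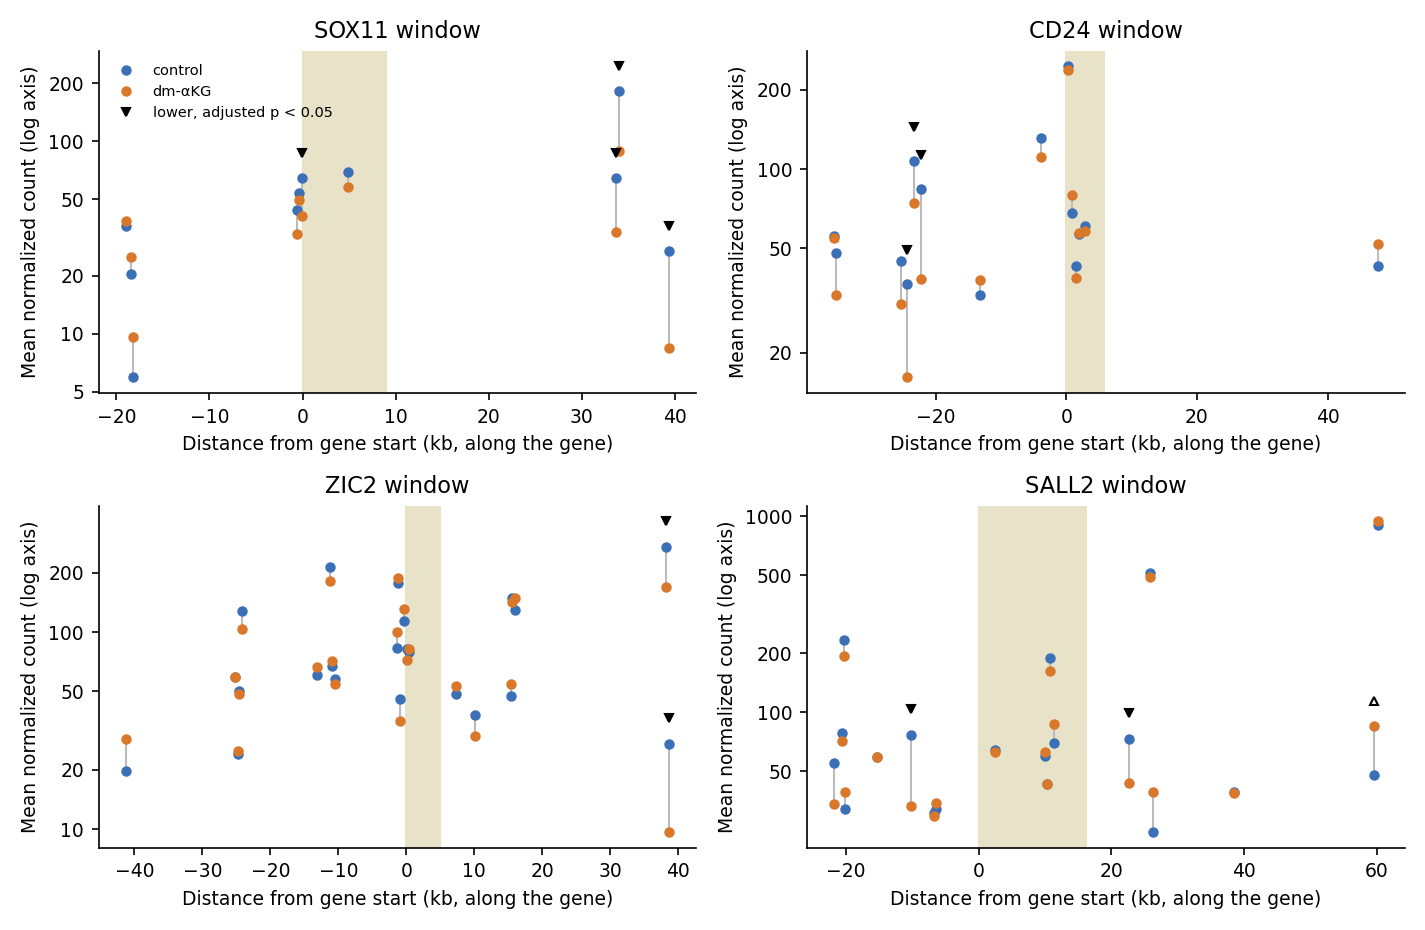
Mean normalized count of every peak (log axis) against the distance of its centre from the gene's start in kb, positive along the direction of transcription, for SOX11, CD24, ZIC2 and SALL2. Blue is the mean of the 3 control libraries and orange that of the 3 dm-αKG libraries, the shaded band is the gene, filled triangles mark peaks that were lower and the open triangle the TOX4 and RAB2B promoter peak that was higher at an adjusted p below 0.05. Apart from the SOX11 promoter peak and the single SALL2 peaks, the lower peaks stand in small groups away from the genes, 33.7 to 39.4 kb downstream of SOX11, 22.2 to 24.4 kb upstream of CD24 and 38.2 to 38.7 kb downstream of ZIC2.

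SFRP2 (ENSG00000145423, chr4:153780591-153789083, - strand) encodes a secreted inhibitor of WNT ligands. Of its 8 peaks 2 fell, both upstream of the gene. The -3.4 kb peak (chr4:153792379-153792578), in the control peak list only, had 146, 127 and 117 in the control libraries and 81.0, 78.3 and 98.8 in the dm-αKG libraries. All dm-αKG libraries were below all control libraries. The peak fell with a log2 fold change of -0.62 ± 0.16 (SE, n = 3 per group) with an edgeR adjusted p of 0.00351, and it did not pass with thinned libraries or without control replicate 1.

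The -0.9 kb promoter peak had 187, 182 and 134 in the control libraries and 127, 114 and 141 in the dm-αKG libraries. Control replicate 3 lay within the range of the dm-αKG libraries. The peak fell with a log2 fold change of -0.42 ± 0.14 (SE, n = 3 per group) with an edgeR adjusted p of 0.0267, and it did not pass with DESeq2 or without any one of control replicates 1 and 2 and dm-αKG replicates 1 and 2. The most accessible peak of the SFRP2 window lies between these, at -1.3 kb, with 482, 402 and 511 in the control libraries and 385, 382 and 439 in the dm-αKG libraries. Its groups overlapped and its log2 fold change of -0.21 ± 0.09 (SE) did not pass (edgeR adjusted p = 0.0755). Inside the gene, the weak +7.2 kb peak had the largest positive value among the 100 peaks, 0.93 ± 0.38 (SE), which did not pass either (edgeR adjusted p = 0.0762).

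Of the surface proteins, CD24 (ENSG00000272398, chr6:106969831-106975627, - strand), a small glycoprotein, had 3 lower peaks of 14, and THY1 (ENSG00000154096, chr11:119415476-119424985, - strand), a GPI-anchored glycoprotein, had none of 10. All 3 lower CD24 peaks lie close to each other in intergenic sequence upstream of the gene. The -22.2 kb peak had 75.1, 77.3 and 99.6 in the control libraries and 46.6, 39.8 and 28.4 in the dm-αKG libraries. The groups were well apart, and the peak fell with a log2 fold change of -1.07 ± 0.22 (SE, n = 3 per group) with an edgeR adjusted p of 1.13e-04.

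The -24.4 kb peak, in the control peak list only, had 39.4, 41.1 and 29.2 in the control libraries and 21.5, 18.0 and 8.98 in the dm-αKG libraries. It had under 10 counts in some library, where counting error is large. The groups did not overlap. It fell with a log2 fold change of -1.11 ± 0.32 (SE, n = 3 per group) with an edgeR adjusted p of 0.00946, and it did not pass without control replicate 2 or without dm-αKG replicate 3. Between them, the -23.3 kb peak (chr6:106998792-106999002) had 106, 105 and 111 in the control libraries and 65.3, 73.1 and 83.8 in the dm-αKG libraries, with groups apart, and fell with a log2 fold change of -0.56 ± 0.17 (SE, n = 3 per group) with an edgeR adjusted p of 0.0162. This peak, SOX11 +33.7 kb and SALL2 +22.7 kb were not followed singly through the other settings. With DESeq2, 10 of the 13 lower peaks still passed.

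At the CD24 promoter the top peak had 224, 207 and 306 in the control libraries and 245, 222 and 247 in the dm-αKG libraries. The dm-αKG libraries lay within the wider range of the control libraries, with a log2 fold change of -0.03 ± 0.11 (SE) and an edgeR adjusted p of 0.906. CD24 has processed copies elsewhere in the genome and reads of its exons could be shared with them. Sharing of reads was not tested for any peak of the window.

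The 10 THY1 peaks had a median log2 fold change of 0.14, and none passed. The top promoter peak had 132, 98.6 and 104 in the control libraries and 114, 103 and 121 in the dm-αKG libraries. The groups overlapped, with a log2 fold change of 0.01 ± 0.16 (SE) and an edgeR adjusted p of 0.984. The smallest adjusted p of the window belonged to a peak in an intron of USP2, +50.6 kb from the THY1 start, with 87.7, 75.6 and 87.5 in the control libraries and 99.0, 118 and 117 in the dm-αKG libraries. All dm-αKG libraries were higher there, with a log2 fold change of 0.40 ± 0.17 (SE) and an edgeR adjusted p of 0.0867, which passed 0.05 only with offsets for GC content, with or without the replicate block.

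**Figure D3:**
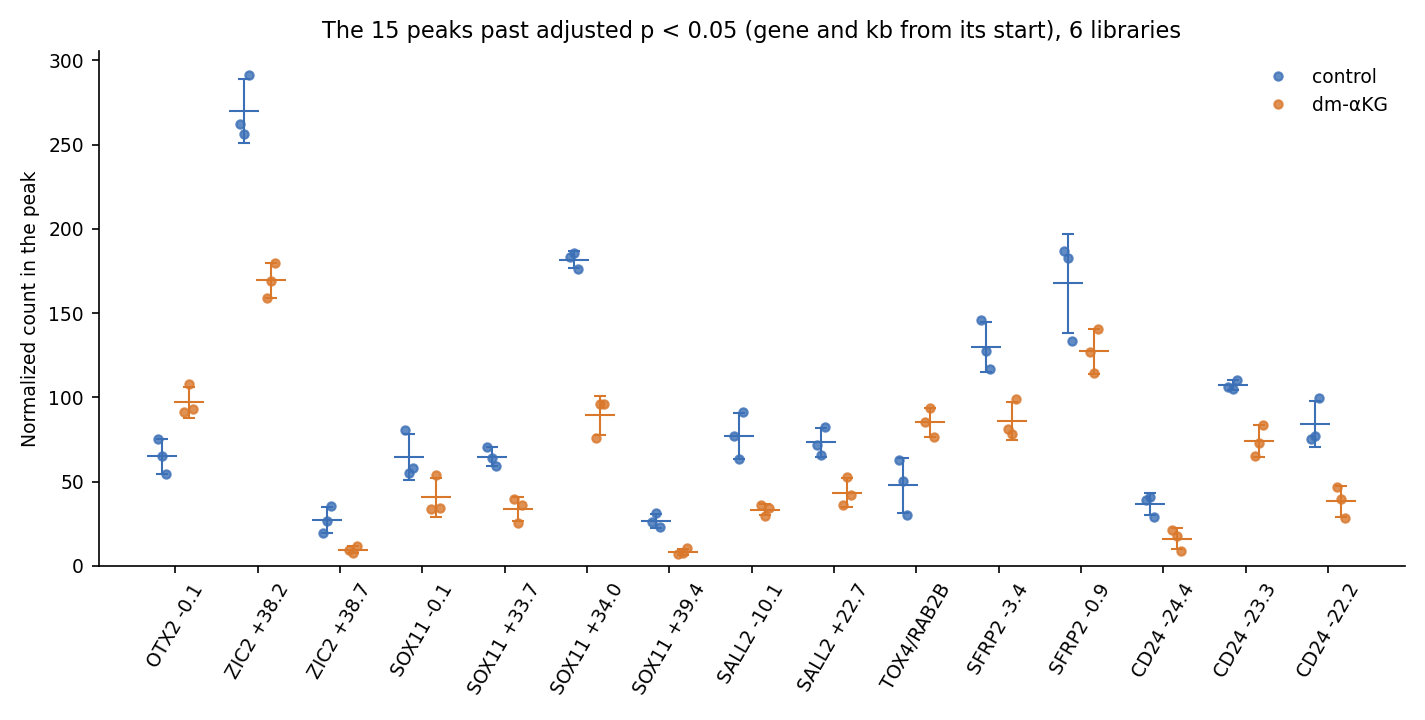
Normalized count in each library (points), with the group mean and SD (lines), for the 15 peaks past an adjusted p below 0.05, named by gene and kb from its start. Control is blue and dm-αKG orange, and the axis starts at 0. The groups are apart at every peak but SFRP2 -0.9 kb, and the lower peaks range in their control mean from 26.8 (SOX11 +39.4 kb) to 270.0 (ZIC2 +38.2 kb).

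The 13 lower peaks were mostly away from transcript starts. Of the 67 distal peaks, those more than 1 kb from the start of any protein-coding transcript, 11 were lower and 0 higher, against 13.3% and 6.17% of all distal peaks, and 6 passed the study's threshold on the lower side and 0 on the higher side, against 2.66% and 0.908%. The 11 lay 3.4 to 39.4 kb from the start of the listed gene (median 24.4 kb), and 9 of them were over 10 kb from the nearest coding start. Most of the 11 stand in the clusters at SOX11, ZIC2 and CD24, and neighbouring peaks of a locus are not independent. All dm-αKG libraries lay below all control libraries at 14 distal peaks and above them at 4, against 20.6% and 12.9%. Of the 25 promoter peaks of the listed genes 2 were lower and 1 higher, against 3.86% and 10.4% of all promoter peaks, and 0 passed the study's threshold in either direction, against 0.316% and 0.485%. The libraries of the groups did not overlap at 2 of them on the lower side and 3 on the higher side, against 8.05% and 21.6%.

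None of the lower distal peaks was called by the authors in dm-αKG cells alone. Of the 11, 6 were in both lists, 5 in the control list only and 0 in the dm-αKG list only. Of all 100 peaks, 65 were in both lists, 20 in the control list only and 15 in the dm-αKG list only, against 71.4%, 15.4% and 13.2% of all peaks. The lists rest on the same libraries as the counts, so this is a description of the peaks and no separate evidence. Of the 13 lower peaks, 7 were in both lists and 6 in the control list only. Peaks of 1 list entered the count table only through the group in which they were called. Higher values in that group are favoured by this choice, so the p-values of these peaks are not free of it. The median GC content of the 11 was 53%, that of the 100 peaks 58.5% and that of all peaks 55.5%.

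The 8 sequence words were searched in the central 200 bp of each peak, on both strands. The octamer was in 0 of the 100 peaks, against 2.28% of all peaks, and the octamer of the ZIC2 +38.2 kb peak lies outside this stretch and was not counted. The ZIC word was in 12, against 10.8%, the SOX word ACAANGG in 7, against 10.0%, and the OTX word TAATCC in 6, against 6.83%. The TEAD word was in 7, against 14.6%, the KLF/SP word GGGNGGGGC in 7, against 11.3%, the AP-1 word TGANTCA in 2, against 6.33%, and the FOX word TGTTTAC in 1, against 2.85%. Among the 13 lower peaks, the ZIC, TEAD and KLF/SP words were in 2 each, the OTX word in 1 and the others in 0. A word is a match of letters and not a bound site.

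The top promoter peaks of all 8 primed genes ranked below the median of protein-coding genes with a promoter peak in accessibility in the control libraries. Per 100 bp, so that peaks of different width can be compared, the normalized count of the top promoter peak in control was 115 ± 24.7 for CD24, 93.2 ± 12.4 for SALL2, 73.9 ± 13.0 for SFRP2 and 54.3 ± 8.75 for THY1 (mean ± SD, n = 3). It was 51.9 ± 3.01 for ZIC2, 43.7 ± 5.17 for OTX2, 33.5 ± 9.62 for ZIC5 and 32.3 ± 6.92 for SOX11 in the same unit. In this order of levels, the control libraries of every gene overlapped those of the next. Among the 16270 protein-coding genes with a promoter peak, these levels ranked from the 8.2 percentile (SOX11) to the 41.4 percentile (CD24), with a median of 17.4. The rank depends on the 1 kb limit. Peaks just outside it, SFRP2 -1.3 kb and ZIC5 +1.2 kb, had mean normalized counts of 465 and 213 in control. The top promoter peaks of these genes had 168 and 67.1.

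Promoters of naive genes ranked higher, at a median percentile of 65.4 over 11 of 12 genes. They ran from 5.6 (ARGFX), under every primed gene, to 98.7 (KLF5), with KLF4 at 31.0 and DNMT3L at 33.9 also under CD24, and DPPA3 had no promoter peak. The naive range thus overlapped that of the primed genes, so promoter rank alone does not check the labelled cell state. The other primed or formative genes ran from 3.0 to 97.3 with a median of 38.15 (14 of 15 genes). Genes of other cell types also ranked above the primed genes at the median, 36.7 for trophectoderm (6 of 8 genes with a promoter peak), 23.1 for primitive endoderm, 33.3 for primitive streak and mesoderm and 26.9 for neural genes (5 of 5 each). None of these promoter peaks was at 0. Of the 8 top promoter peaks of the primed genes, 2 were lower (SOX11 and SFRP2) and 0 higher, against 4.89% and 8.76% of all genes' top promoter peaks.

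**Figure D4:**
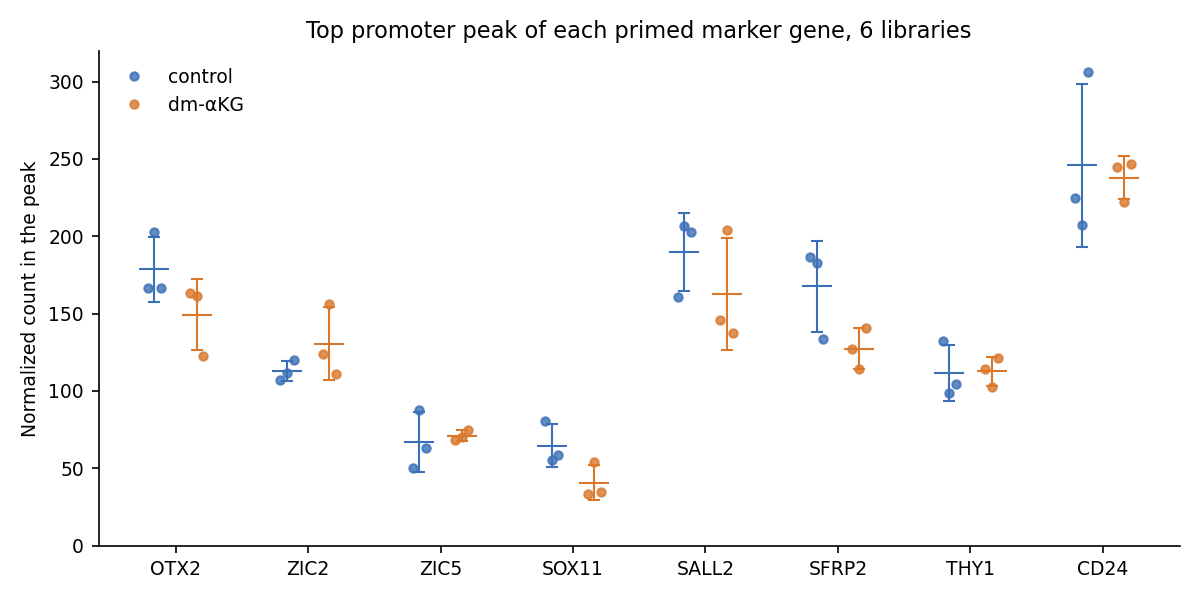
Normalized count of the most accessible promoter peak of each primed gene in each library (points), with group means and SD (lines), control in blue and dm-αKG in orange, on an axis from 0. The groups stand apart, by narrow margins, at OTX2 and SOX11 and overlap at the other genes, and SOX11 and SFRP2 are the 2 that were lower at an adjusted p below 0.05.

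Around the 12 naive genes, 70 of 315 peaks were lower (22.2%) and 19 higher (6.03%), and around 15 other primed or formative genes, listed by the same 50 kb rule, 32 of 239 were lower (13.4%) and 14 higher (5.86%). The share of lower peaks at the 8 primed genes, 13.0%, was next to that of the other primed genes and under that of the naive genes, differences that were not tested. Of all peaks, 10.5% were lower and 7.43% higher. Past the study's threshold stood 7 peaks in each of these lists on the lower side (2.22% and 2.93%) and 3 on the higher side, against 1.96% and 0.782% of all peaks. Distal peaks alone were lower at 24.4% for the naive genes, 17.2% for the other primed genes and 16.4% for the 8 genes here, against 13.3% of all distal peaks.

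Peaks near genes of other cell types were lower at 4.08% to 5.05%, against 10.5% of all peaks, of which 7.43% were higher. Their lists differed in the share of promoter peaks, from 24.5% (neural) to 40.0% (primitive streak and mesoderm). Of all promoter peaks 3.86% were lower, and of all distal peaks 13.3%. In the windows of the trophectoderm genes, 6 of 143 peaks were lower and 18 higher, in those of the primitive endoderm genes 5 and 8 of 99, in those of the primitive streak and mesoderm genes 3 and 0 of 60, and in those of the neural genes 4 and 8 of 98. Their part in the losses at the primed genes was not tested.

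Among the top promoter peaks of the 8 genes, that of SOX11 had the smallest adjusted p. The promoter peaks whose pattern over the 6 libraries was most like it, among 15708 genes with a mean of at least 50, were those of OAT (Pearson's r of log2 normalized counts 0.992), RAP2B (0.991) and STEAP1 (0.990). These are the best of many genes over 6 libraries, and their log2 fold changes were small, -0.12, -0.15 and -0.20.

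At the edge of the windows, the farthest peak still inside lay 49790 bp from THY1 and had 38.5, 40.3 and 51.0 in the control libraries and 45.2, 51.3 and 61.4 in the dm-αKG libraries. Its log2 fold change was 0.27 ± 0.24 (SE), which did not pass. The nearest peak left out lay 50466 bp from THY1, in an exon of the lncRNA USP2-AS1 (chr11:119475451-119475650), was in the dm-αKG list only and had 8.94, 9.86 and 7.29 in the control libraries and 44.5, 34.6 and 46.4 in the dm-αKG libraries. The groups were far apart, with a log2 fold change of 2.23 ± 0.36 (SE), so the rule's distance decides whether a strong gain counts among the peaks near THY1. With windows of 100 kb, 23 of 171 peaks were lower and 4 higher, with 9 and 1 past the study's threshold. With windows of 10 kb, 4 of 53 were lower and 1 higher, with 0 past the threshold.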

How the data were processed

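ATAC-seq was measured in 6 libraries of H9 nES cells, 3 control and 3 dm-αKG, grouped by the treatment in their labels. Per the study's methods, the authors trimmed reads, aligned them to hg38 with Bowtie 2, filtered them with the ENCODE pipeline and called peaks with MACS2 per replicate (bcl2fastq 2.20.0.422 and bedtools 2.28.0, per the submitters' processing notes). The authors deposited reproducible peaks as 1 list per treatment, with a score, the fold enrichment as a ratio and q-values as −log10, and these were used only for membership of a list. The authors deposited raw counts of reads in peaks cut to 200 bp around the summit and merged, with no normalization.

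Counts of all 171517 peaks were tested with edgeR 4.0.16 in R 4.3.3 (TMM factors, quasi-likelihood fit, treatment as the only term, no filter on low counts), with p-values adjusted by Benjamini-Hochberg over all peaks. "Lower", "fell", "higher" and "rose" mean an adjusted p below 0.05. The SE of a log2 fold change is its size over the square root of F. Normalized counts are counts divided by each library's TMM-scaled total relative to the mean of the 6. A promoter peak has its centre within 1 kb of a transcript start of a protein-coding gene in GENCODE 44, which may differ from the annotation the authors used. Library depth was 13025674 to 26828622 counts in peaks, and 7 of the 100 peaks had under 10 counts in some library, where counting error is large. DESeq2 1.42.0, limma 3.58.1, other scalings, filters, windows and left-out libraries were alternatives. The scripts were tested on simulated data. Words were searched with Python 3.11.15. The sequences of some peaks are not reported here.

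Peaks named are, for each gene, the promoter peak with the highest mean over libraries and the peak of smallest adjusted p, every peak past the study's threshold, and promoter peaks of other genes that passed. Other peaks given values were chosen after their values were seen. The genes and lists were chosen with earlier results of these data known. Replicate numbers did not pair the libraries (correlations of same-numbered deviations -0.0157, -0.000899 and 0.0134), and the chi-square per degree of freedom of replicate pairs, 1.80 to 2.16, showed no repeated library.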

Additional observations from a re-analysis of the deposited data

How the results depend on the processing

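The count of lower peaks (13) was 10 to 14 and that of higher peaks (2) 1 to 2 when single libraries were left out. The count past the study's threshold (6) was 3 to 5, reaching 3 when control replicate 2 or dm-αKG replicate 1 was left out, and 1 peak was past it on the higher side without control replicate 1 (0 to 1 over the left-out libraries). The median log2 fold change ranged from -0.0884 to 0.0386, the lowest without dm-αKG replicate 1. Past the study's threshold stood 4 peaks with DESeq2 and 4 with limma-voom. There were 3 with GC offsets, 3 with GC offsets and the replicate block and 3 with the minimum of 10 counts. Thinned libraries gave 2, and windows of 10 kb or the gene body alone gave 0. Higher peaks numbered 1 with DESeq2, thinned libraries, an adjusted p below 0.01, windows of 10 kb, the gene body alone, or without promoters of other genes, 3 with GC offsets (with or without the replicate block, 1 of the original 2 among them) or the minimum of 10 counts, and 4 with windows of 100 kb, where 9 peaks were past the study's threshold on the lower side and 1 on the higher side. Lower peaks numbered 4 with windows of 10 kb, 23 with 100 kb and 1 in the gene body alone. DESeq2 gave 10 lower peaks, and no adjusted p for 2 of the 100 peaks. The minimum of 10 counts left 93 peaks to test, without SOX11 +39.4 kb, ZIC2 +38.7 kb and CD24 -24.4 kb. With GC offsets, SOX11 +34.0 kb, CD24 -22.2 kb and CD24 -24.4 kb had log2 fold changes of -0.9985, -0.9779 and -0.9718. These are just short of the study's fold threshold. CD24 -24.4 kb also missed the study's limit on p, with an edgeR adjusted p of 0.0253. With GC offsets and the replicate block its log2 fold change was -1.0177, with an edgeR adjusted p of 0.0224. Narrower windows hold fewer peaks (53 at 10 kb and 26 in gene bodies) and wider ones more (171 at 100 kb). The cause of the other changes was not tested.

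The sign of 3 promoter values near 0 turned. ZIC5 was -0.0845 with GC offsets, -0.0347 with GC offsets and the replicate block and -0.033 with thinned libraries, THY1 was -0.0012 with the minimum of 10 counts, -0.0045 with the replicate block and -0.0789 with thinned libraries, and CD24 was 0.0131 with limma-voom. With left-out libraries, ZIC5 ranged from -0.11 to 0.34, THY1 from -0.0808 to 0.16 and CD24 from -0.13 to 0.14.

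With the replicate block, 13 peaks were lower, 2 higher and 6 past the study's threshold, the same peaks as without it, and the numbers did not pair the libraries. Depth limits the weakest peaks, since those under 10 counts in a library have a wide error.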

Other observations

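Single genes of the lists set beside the primed genes had promoter peaks that passed the same edgeR test. Among the other primed or formative genes, DUSP6, a phosphatase that restrains ERK, had 516, 418 and 471 in the control libraries and 361, 366 and 425 in the dm-αKG libraries at its top promoter peak. It fell with a log2 fold change of -0.30 ± 0.09 (SE, n = 3 per group) with an edgeR adjusted p of 0.00928, with the highest dm-αKG library above the lowest control library. PTPRZ1, a receptor phosphatase, had 153, 139 and 135 in the control libraries and 176, 199 and 202 in the dm-αKG libraries. It rose with a log2 fold change of 0.42 ± 0.13 (SE, n = 3 per group) with an edgeR adjusted p of 0.0155, and its groups were apart. These were the 1 lower and the 1 higher of 14 promoter peaks in the list, against 4.89% and 8.76% of all genes' top promoter peaks, so both counts were near the background.

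Of the lineage genes, the promoter peak of GATA6, a factor of primitive endoderm, had 268, 270.4 and 209 in the control libraries and 308, 364 and 259 in the dm-αKG libraries and rose with a log2 fold change of 0.31 ± 0.11 (SE, n = 3 per group) with an edgeR adjusted p of 0.0290, with overlapping groups. The promoter peak of HES5, a NOTCH target of neural progenitors, had 135, 155 and 124 in the control libraries and 200.1, 169 and 190.1 in the dm-αKG libraries and rose with a log2 fold change of 0.43 ± 0.13 (SE, n = 3 per group) with an edgeR adjusted p of 0.0127, with groups apart. GATA6 was the 1 higher of 5 promoter peaks in the primitive endoderm list, and HES5 the 1 higher of 5 in the neural list. The others in these lists did not pass. Of all genes' top promoter peaks, 8.76% were higher, so neither gene stands for its list.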
